A study of Mus musculus with 40 samples.

Results

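Glioma cell lines derived from p53 R172H CKO mice were compared by how strongly they expressed interferon-stimulated genes. The members were the 13 lines among the 40 arrays of the series, ranked by the mean log2 signal of the interferon-stimulated genes Usp18 and Ifit1. The 4 highest lines are called interferon-high and the 4 lowest interferon-low, which leaves 5 middle lines. The remaining gene of the score, Isg15, had no probe set of its own on this array, since its probe set also names Gm9706, and was left out of the score. The score genes, and therefore the sides, were read from the same arrays as every other gene, so the levels of interferon genes between the sides are given as a description.

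All 13 lines carried the genotype hGFAP-cre+;p53LSLR172H/floxE2-10. In these mice, Cre driven by the human GFAP promoter in neural cells deletes one p53 allele and switches on the R172H mutant from the other. There were 11 lines from end-stage gliomas and 2 from early biopsies, and each side held 1 early biopsy line. The lines were grown at early passage as spheres in a serum-free medium with bFGF and EGF, and they were not further authenticated. The laboratory tested its cultures for mycoplasma routinely, but these lines were not tested individually. The series also holds 11 gliomas of the same genotype, 11 gliomas of the genotype hGFAP-cre+;p53floxE2-10/floxE2-10 (p53 null CKO) and 5 normal cortices of control mice, 3 of them Cre-positive with 1 floxed allele (hGFAP-cre+;p53floxE2-10/+) and 2 Cre-negative (hGFAP-cre-;p53floxE5-6/floxE5-6). Ages are not given in the labels, and no label ties a line to a tumor or to an animal. By the methods, each R172H glioma was paired with a line derived from it, so the end-stage lines and these gliomas are not independent sets. Lines are named here by their array numbers.

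Type I interferons (the interferon-alpha family and interferon-beta) signal through the receptor pair Ifnar1 and Ifnar2 to a transcription factor complex that contains Irf9. The complex binds interferon-stimulated response elements in the promoters of a large set of genes, whose products degrade viral RNA, block translation and raise antigen presentation. Interferon-gamma signals through a different receptor and induces an overlapping set, with more weight on GTPases and the antigen-processing machinery. In cells without infection, the same program can be switched on by their own nucleic acids through cytosolic sensors.

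The interferon score of the interferon-high lines was 10.38 in array 66 (early biopsy), 9.89 in array 65, 8.83 in array 55 and 8.52 in array 61, against 4.86 in array 68, 4.53 in array 69 (early biopsy), 4.41 in array 47 and 4.35 in array 49 of the interferon-low lines. The middle lines were array 53 (7.90), array 63 (6.39), array 59 (5.65), array 57 (5.62) and array 51 (5.61). The upper boundary therefore fell between 8.52 and 7.90, a small step, and the lower one between 5.61 and 4.86. With the probe set shared by Isg15 and Gm9706 added to the score, the interferon-high lines were the same 4, and array 51 (5.50) took the place of array 68 (5.51) among the lowest. The scores of the 22 gliomas lay between 5.01 and 11.82 (median 9.98) and those of the 5 cortices between 4.51 and 5.71. By genotype, the R172H gliomas ran from 5.01 to 11.14 (median 8.35) and the null gliomas from 8.21 to 11.82 (median 10.53). The interferon-low lines thus lay within or below the range of normal cortex, and the interferon-high lines within the range of the gliomas.

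**Figure D1:**
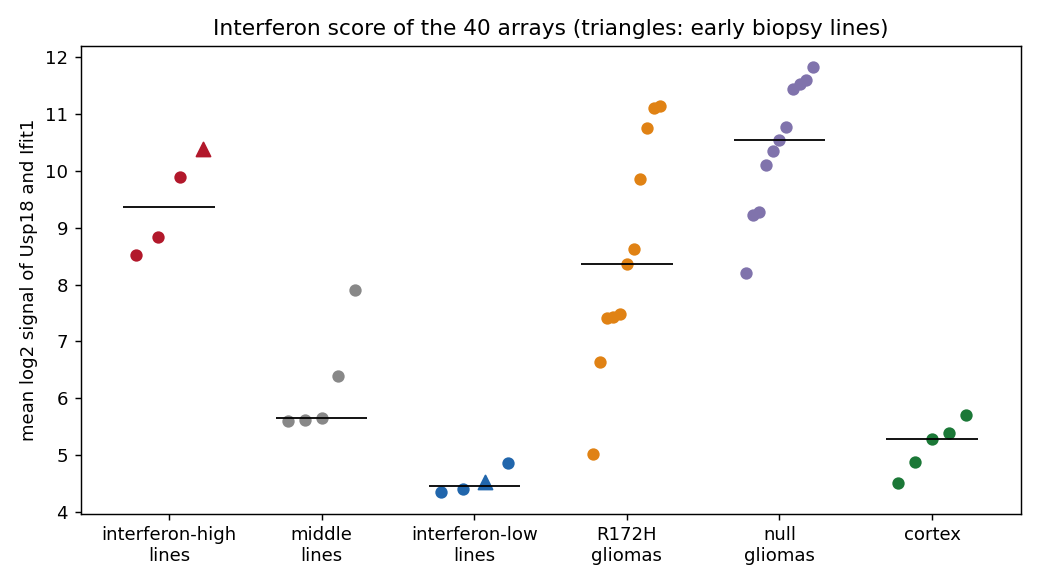
Interferon score (mean log2 signal of Usp18 and Ifit1, vertical axis) of each of the 40 arrays, by group. Points are arrays, triangles are the 2 early biopsy lines and black bars are medians. The interferon-high lines lie between 8.52 and 10.38 and the interferon-low lines between 4.35 and 4.86.

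Some features of the lines bear on every comparison below. Over 8644 genes with a mean log2 signal above 7 in the lines, the interferon-low lines of arrays 68 and 69 correlated at 0.969 in level and at 0.73 in their deviations from the mean of the 13 lines. The interferon-high lines of arrays 66 and 65 followed, with 0.925 and 0.45, and the next of the 78 pairs had 0.28 for deviations. Each of these pairs joins an early biopsy line to an end-stage line of the same side, so the 4 lines of a side may count for fewer than 4 independent lines, which the labels cannot settle. Glioma lineage markers were not all even across the lines. Olig2, a transcription factor of oligodendrocyte progenitors, measured 10.77 to 11.43 in interferon-high lines and 10.51 to 11.03 in interferon-low lines. Sox10, another marker, measured 10.8 and 12.07 in the interferon-high lines of arrays 66 and 65, but 5.55 and 5.65 in arrays 55 and 61. In the interferon-low lines of arrays 68, 69, 47 and 49 it measured 5.99, 7.13, 9.1 and 6.01. Microglia and macrophage markers were low in all lines. The mean of the 22 markers was 4.18 to 4.48 in interferon-high lines and 4.16 to 4.43 in interferon-low lines, against 7.85 to 10.00 in gliomas, and 0 of the 22 exceeded the array median in every line of either side. The mean of 14 lymphocyte markers was 3.95 to 4.02 in interferon-high lines and 4.0 to 4.14 in interferon-low lines.

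In a linear model of the 13 lines with the sides and the middle lines as 3 groups, 10 of 18191 genes were higher in interferon-high lines at an adjusted p under 0.05 (limma with Benjamini-Hochberg adjustment; 0.055% of all genes), and 0 were lower (0.0%). At an unadjusted p under 0.05, 414 genes were higher and 627 lower. All 10 called genes belong to the interferon lists, 8 to the antiviral effectors and 2 to the nucleic acid sensors. The sides were sorted on Usp18 and Ifit1, so genes that vary together with them separate the sides by construction. The calls of interferon genes are therefore descriptive and carry no independent evidence. The 4 and 4 lines did not overlap for 269 genes that were higher (1.48%) and for 507 that were lower (2.79%). Of the 170 tested genes in the 7 interferon lists, 54 were higher without overlap (31.8%) and 3 were lower (1.76%). More than 2-fold higher were 62 of the 170 and more than 2-fold lower 2, against 1.78% and 1.31% of all genes. Their median difference was 0.46 on the log2 scale, against -0.04 over all genes tested. A median of this size was not particular to them, since the oligodendrocyte progenitor list had 0.52, with 6 of its 16 genes more than 2-fold higher and 0 lower, and the cell cycle list 0.51, with 1 of 39 more than 2-fold higher. Neither list held a called gene. Without the line of array 65, or without that of array 69, 0 genes were called. Without array 47 there were 2, without array 68 there were 3, and without array 66 there were 6. With both early biopsy lines left out 0 genes were called. The sign of the difference was compared in these fits for only some of the genes named below, the 10 called ones among them, and it turned for 0 of these.

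**Figure D2:**
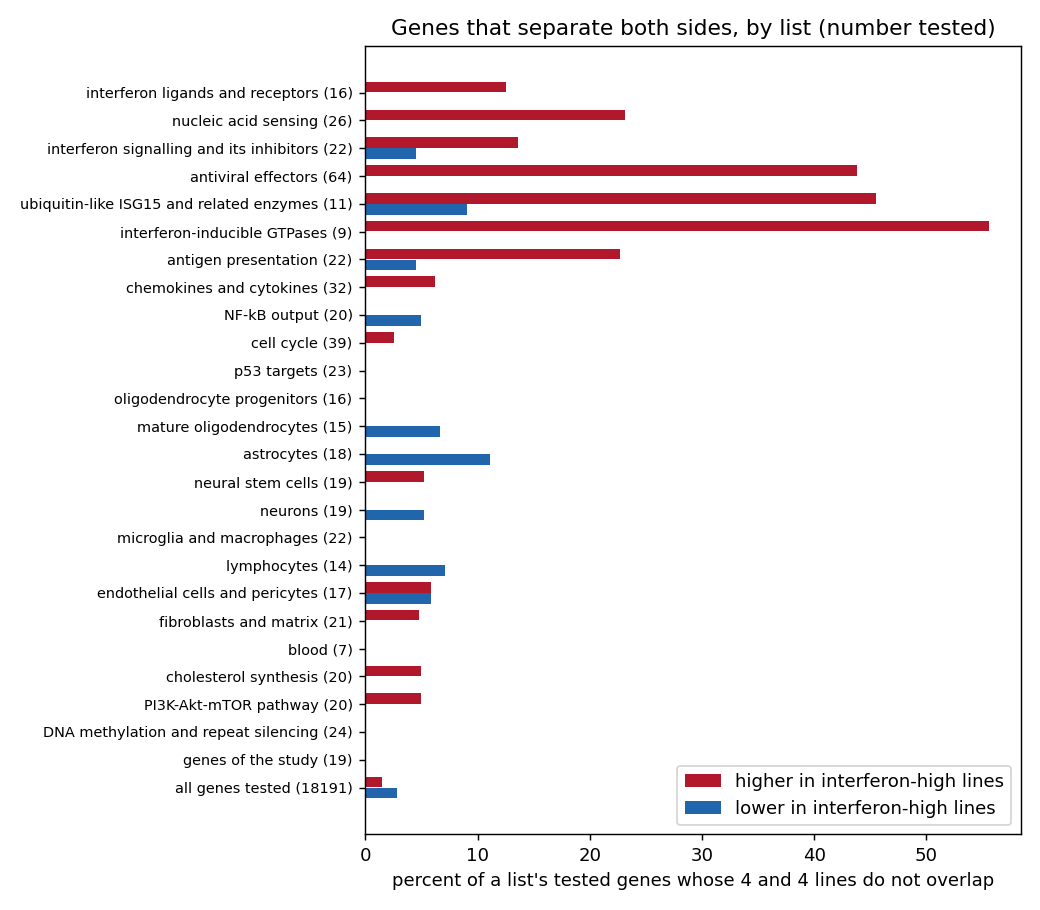
Percent of each list's tested genes (horizontal axis) whose 4 interferon-high and 4 interferon-low lines do not overlap, red where higher and blue where lower in interferon-high lines, with the number of tested genes in brackets. The interferon-inducible GTPases reach 55.6% higher and the antiviral effectors 43.8%, against 1.48% of all genes tested.

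The ligands that start the response overlapped between the sides, and most were dim. Ifnb1, the gene of interferon-beta, measured 3.88, 4.11, 4.55 and 4.13 in interferon-high lines and 3.48, 4.19, 4.13 and 4.19 in interferon-low lines (arrays 66, 65, 55 and 61, and arrays 68, 69, 47 and 49, an order kept for all values below). The sides overlapped, at levels below the array medians of 6.56 to 6.82 over all genes. Ifng, the gene of interferon-gamma, was at 2.64 to 2.94 in interferon-high lines and at 2.81 to 2.96 in interferon-low lines. The interferon-alpha genes Ifna1, Ifna2, Ifna4, Ifna5, Ifna9 and Ifna11 differed between the means of the sides by -0.21 to 0.09. Ifnz, the gene of interferon-zeta, was brighter, at 6.39 to 6.91 in interferon-high lines and 6.49 to 7.11 in interferon-low lines. Signals as low as those of the other ligands cannot show whether a ligand was made at a low level.

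The receptor chains for type I interferon and interferon-gamma were above the array medians on both sides, while Ifnlr1, a chain of the interferon-lambda receptor, was dim on both (3.62 to 4.06 in interferon-high lines and 3.70 to 3.95 in interferon-low lines). Ifnar2, a chain of the type I receptor, measured 9.11, 9.62, 8.82 and 9.18 in interferon-high lines and 8.63, 8.39, 7.50 and 8.72 in interferon-low lines. The sides did not overlap, by a margin of 0.10, and the middle lines ran from 7.45 to 9.40. Ifngr2, a chain of the interferon-gamma receptor, was also higher without overlap (a difference of 0.56), while Ifnar1 (0.32) and Ifngr1 (-0.01) overlapped. Of the 16 genes of this list, 2 were higher without overlap (12.5%, against 1.48% of all genes) and 0 lower.

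Among the sensors of nucleic acids, 6 of 26 were higher without overlap (23.1%, against 1.48% of all genes) and 0 lower. The median difference over the list was 0.11. Ddx60, a helicase linked to the sensing of viral RNA, measured 8.30, 7.27, 6.52 and 5.55 in interferon-high lines and 3.98, 3.83, 3.41 and 3.52 in interferon-low lines. The 5 middle lines (3.90 to 4.48) all lay more than 1 log2 unit below the lowest interferon-high line. Ddx58, which encodes the RNA sensor RIG-I, measured 8.24, 8.30, 7.49 and 7.91 in interferon-high lines and 6.27, 5.89, 6.18 and 6.92 in interferon-low lines. It had the smallest difference of the 10 called genes, 1.67 ± 0.25 (SE), or 3.18-fold.

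The other sensors without overlap were more uneven. Trim25, the ubiquitin ligase that acts with RIG-I, measured 9.37, 8.63, 9.34 and 10.14 in interferon-high lines and 7.01, 6.90, 3.25 and 5.03 in interferon-low lines. The interferon-low lines of arrays 47 and 49 were lower than the other two, and the middle line of array 53 (8.95) stood above the interferon-high line of array 65. Ifih1, which encodes the RNA sensor MDA5, differed by 1.68, and Tlr3, the endosomal receptor for double-stranded RNA, by 2.10. The cytosolic DNA sensor Cgas (0.97) and the adaptor gene Mavs (0.00) overlapped between the sides.

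In the signalling list, 3 of 22 genes were higher without overlap (13.6%, against 1.48% of all genes) and 1 lower (4.55%, against 2.79%). Irf7, the transcription factor that amplifies the type I response, measured 10.88, 9.43, 6.84 and 9.57 in interferon-high lines and 5.54, 5.43, 5.63 and 6.04 in interferon-low lines. The line of array 55 was the lowest of its side, 0.80 above the highest interferon-low line. Irf9, the DNA-binding partner of the complex downstream of the type I receptor, measured 8.99, 9.16, 7.82 and 8.69 in interferon-high lines and 5.73, 5.14, 6.74 and 6.44 in interferon-low lines. The upstream kinase genes Jak1 (-0.10) and Tyk2 (0.06) and the factor Irf3 (-0.01), which acts before interferon is made, had small differences and overlapping sides. Trim21, an antibody receptor in the cytosol with ubiquitin ligase activity, differed by 1.61 without overlap. Rnf125, a ubiquitin ligase known to restrain RIG-I, ran the other way, with 4.68, 4.38, 5.69 and 5.84 in interferon-high lines and 7.46, 7.17, 6.50 and 7.46 in interferon-low lines, a difference of -2.0.

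The antiviral effectors held 8 of the 10 called genes. Of 64 genes tested, 28 were higher without overlap and 0 lower, and the median difference was 0.91. Ifi27l2a, a small gene known for its strong induction by interferon, showed the largest difference of the called genes. It measured 12.50, 13.09, 9.17 and 10.40 in interferon-high lines and 6.25, 5.98, 5.16 and 4.82 in interferon-low lines, a difference of 5.74 ± 0.84 (SE), or 53.3-fold. The middle lines fell between the sides or within the interferon-low range, from 5.88 in array 59 to 8.66 in array 53.

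Rtp4, an interferon-induced inhibitor of viral replication, measured 11.52, 11.32, 9.68 and 10.51 in interferon-high lines and 6.05, 5.51, 6.23 and 5.92 in interferon-low lines. Its difference was 4.83 ± 0.53 (SE), or 28.4-fold, and the gap between the nearest lines of the sides was 3.44. Xaf1, a proapoptotic interferon-stimulated gene, measured 10.85, 11.18, 8.15 and 8.82 in interferon-high lines and 4.69, 4.71, 5.29 and 5.52 in interferon-low lines. For Xaf1, as for Ifi27l2a, the lines of arrays 66 and 65 stood more than 1 log2 unit above those of arrays 55 and 61. Lgals9, which encodes the secreted lectin galectin-9, measured 9.28, 9.64, 8.23 and 8.43 in interferon-high lines and 4.15, 4.21, 4.15 and 4.49 in interferon-low lines. It had the widest gap of the called genes, 3.74, and its 4 interferon-low lines lay within 0.34 of each other.

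Oasl2, a member of the oligoadenylate synthetase family, measured 8.81, 8.34, 7.06 and 7.10 in interferon-high lines and 4.46, 4.01, 4.37 and 3.95 in interferon-low lines. Rsad2, which encodes the antiviral enzyme viperin, measured 11.53, 10.22, 9.37 and 9.78 in interferon-high lines and 7.55, 6.66, 6.67 and 7.33 in interferon-low lines. The ubiquitin ligase Dtx3l and its partner Parp9, of the family of ADP-ribosyltransferases, share a promoter region in the genome and differed by 2.76 and 2.49. Among effectors short of the threshold, Eif2ak2, which encodes the RNA-dependent kinase PKR, differed by 1.33 without overlap, and Bst2, the membrane protein tetherin, by 2.92. All 5 middle lines lay below the lowest interferon-high line for each of the 10 called genes, and between the sides for 4 of them.

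The promoters of the called genes were searched for the core of the interferon-stimulated response element, GAAA followed by any 2 bases and GAAA, on either strand (TTTC, any 2 bases, TTTC on the other). The windows were those of RefSeq on GRCm38.p6, 300 bases each, from 250 before to 50 after the start site. Of the 10 called genes, 7 had a promoter in the table and 4 of these (57.1%) held the motif, against 3.62% of all genes tested and 3.99% of all genes in the table. Among the 54 interferon list genes higher without overlap, 18 of 44 with a promoter held it (40.9%), and among the 215 other genes higher without overlap, 10 of 176 (5.68%). A match is a description of the letters and not a binding site. The stretches around the motif, with motif letters in capitals, are shown for the 4 called genes and for the GTPase genes Igtp and Irgm1 described below, because they show how the element sits in genes that separated the sides. Each reads 5′ to 3′ on the strand of its gene, and positions are counted from the start site as 0.
Ddx60, chr8:61928009-61928102, plus strand: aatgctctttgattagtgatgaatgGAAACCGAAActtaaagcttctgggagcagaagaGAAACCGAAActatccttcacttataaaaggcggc
Ddx58, chr4:40239796-40239848, minus strand: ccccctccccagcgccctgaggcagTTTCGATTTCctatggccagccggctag
Rsad2, chr12:26456538-26456597, minus strand: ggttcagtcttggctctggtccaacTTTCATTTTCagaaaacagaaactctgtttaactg
Lgals9, chr11:78984895-78985004, minus strand: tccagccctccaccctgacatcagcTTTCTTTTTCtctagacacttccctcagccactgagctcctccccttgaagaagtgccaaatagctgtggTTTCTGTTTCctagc
Igtp, chr11:58199497-58199556, plus strand: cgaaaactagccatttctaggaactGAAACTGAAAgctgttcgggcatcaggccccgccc
Irgm1, chr11:48871410-48871475, minus strand: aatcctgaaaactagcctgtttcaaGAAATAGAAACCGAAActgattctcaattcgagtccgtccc

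In Ddx60 the same 10 letters occur in both motifs, the nearer one beginning at position -19. In Ddx58 the motif begins at position 2 and in Rsad2 at -120. Irgm1 holds 2 overlapping motifs that share the middle GAAA. Oasl2, Dtx3l and Xaf1 had a promoter in the table without these letters. So did Irf7, Irf9 and Trim25, which were not called but separated the sides. Such an absence says nothing of elements outside the window or with other spacing.

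**Figure D3:**
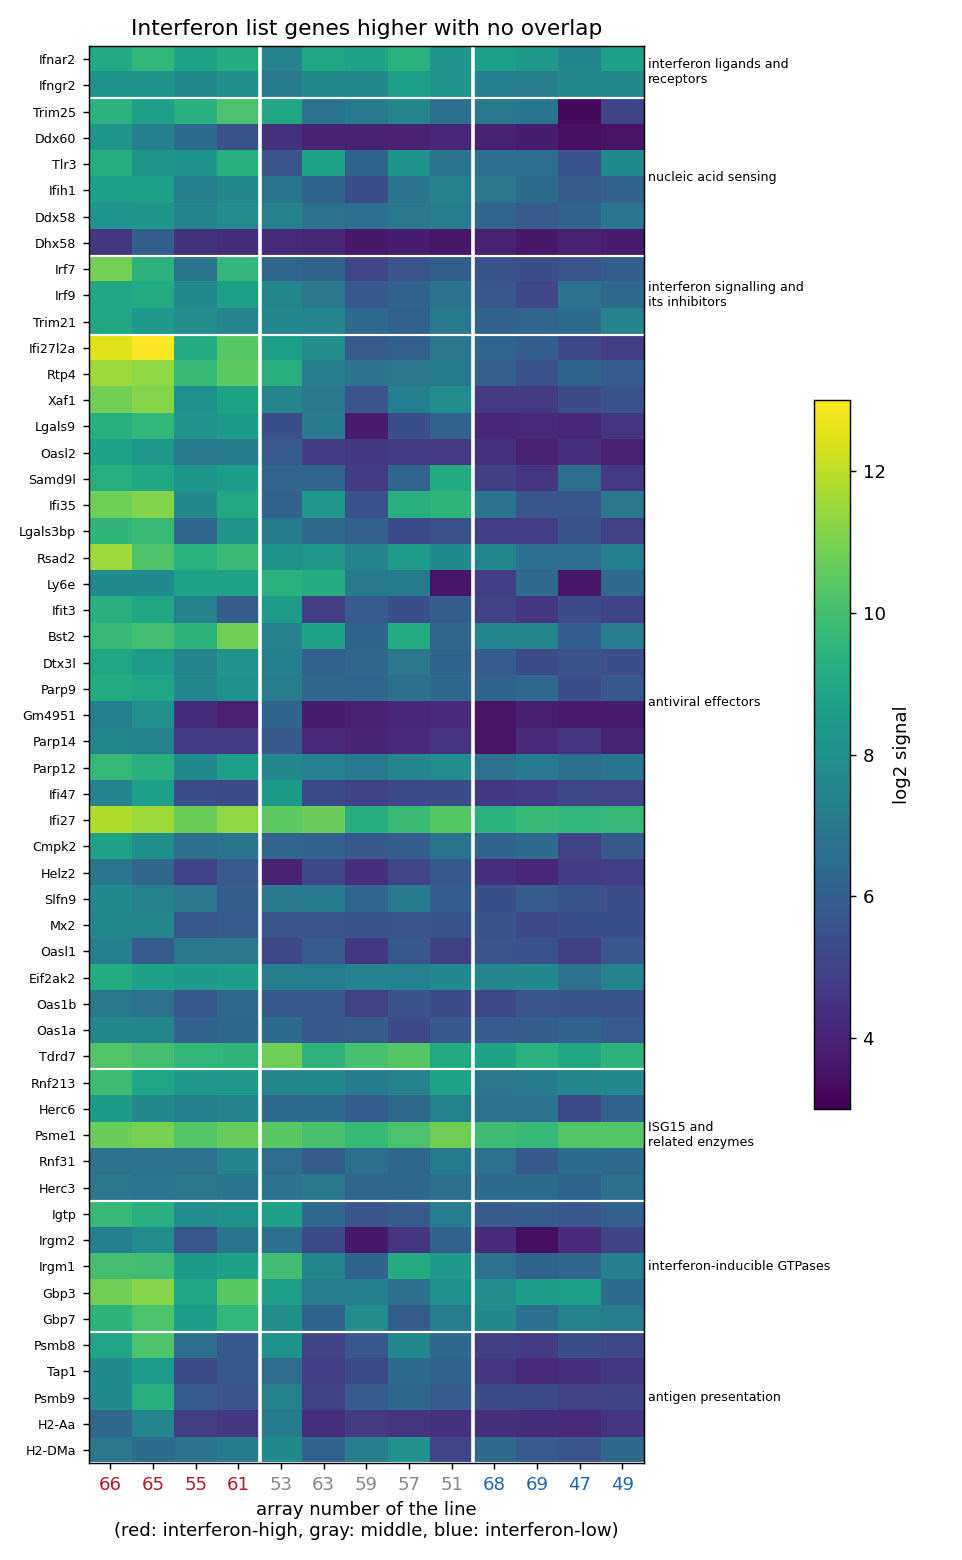
Log2 signal (color) of the interferon list genes that were higher without overlap in interferon-high lines, grouped by list (rows), in the 13 lines ordered by interferon score (columns). The lines of arrays 66 and 65 are the brightest for most genes, and the middle line of array 53 is bright for the GTPases and antigen presentation genes.

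The interferon-high lines differed among themselves. For the 54 interferon list genes without overlap, the line of array 66 was the highest of its side for 27 genes and that of array 65 for 21, and the line of array 55 was the lowest for 37. The 2 lines with the highest score therefore carried the highest level of nearly all of these genes.

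Among the enzymes of the ISG15 pathway, ISG15 being a ubiquitin-like protein that is coupled to other proteins, 5 of 11 genes were higher without overlap and 1 lower. Rnf213, a giant ubiquitin ligase, measured 9.87, 8.92, 8.39 and 8.40 in interferon-high lines and 6.98, 7.15, 7.61 and 7.73 in interferon-low lines. Herc6, the ligase that couples ISG15 in the mouse, differed by 1.52, and Psme1, a proteasome activator subunit, by 0.63. The shared probe set of Isg15 and Gm9706 itself measured 10.01, 10.24, 7.65 and 9.0 in interferon-high lines and 6.80, 5.56, 5.76 and 6.03 in interferon-low lines. The interferon-high line of array 55 was below the middle line of array 53 (8.53) on it.

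The interferon-inducible GTPases, which attack the vacuoles of intracellular pathogens, had the largest share of genes without overlap, 5 of 9, all higher, with a median difference of 2.66. Igtp measured 9.71, 9.32, 7.91 and 8.12 in interferon-high lines and 5.92, 5.94, 5.73 and 6.06 in interferon-low lines. Irgm1, a regulator of the other GTPases of its family, measured 10.07, 9.95, 8.46 and 8.72 in interferon-high lines and 6.74, 6.24, 6.30 and 7.29 in interferon-low lines. The middle line of array 53 had 8.73 for Igtp and 9.92 for Irgm1, above the interferon-high lines of arrays 55 and 61 in both. Irgm2 (2.72) and Gbp3 (2.44) were also higher without overlap.

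Antigen presentation genes followed another order of lines. Psmb8, a subunit of the immunoproteasome, measured 8.89, 10.22, 6.60 and 5.81 in interferon-high lines and 4.88, 4.78, 5.41 and 5.17 in interferon-low lines, with 8.14 in the middle line of array 53 and 7.65 in that of array 57. Tap1, the peptide transporter for MHC class I, measured 7.83, 8.48, 5.34 and 5.83 in interferon-high lines and 4.60, 4.18, 4.39 and 4.64 in interferon-low lines, with 6.58 in array 53. The lines of arrays 66 and 65 were the highest for both, and those of arrays 55 and 61 lay below the middle line of array 53. Psmb9, another subunit of the immunoproteasome, differed by 2.05. For all 5 genes of this list that were higher without overlap, the line of array 53 stood above the lowest interferon-high line, compared with 10 of 28 antiviral effectors and 0 of the 10 called genes. H2-K1, an MHC class I heavy chain, measured 11.84, 12.82, 10.00 and 10.95 in interferon-high lines and 9.24, 9.22, 8.92 and 10.37 in interferon-low lines, and its sides overlapped. H2-Aa, of MHC class II, measured 6.38, 7.60, 4.80 and 4.57 in interferon-high lines and 4.40, 4.32, 4.24 and 4.55 in interferon-low lines, and 7.07 in array 53.

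Of 32 chemokine and cytokine genes, 2 were higher without overlap (6.25%, against 1.48% of all genes), 0 lower, and the median difference was -0.01. Cxcl10, a chemokine for T cells, measured 10.70, 10.04, 8.82 and 8.67 in interferon-high lines and 7.85, 6.60, 6.93 and 8.01 in interferon-low lines, while the middle line of array 53, with the score next to the interferon-high lines, had 4.56. Ccl5, another chemokine for T cells, measured 7.72, 9.80, 7.28 and 5.68 in interferon-high lines and 4.98, 4.55, 5.50 and 5.61 in interferon-low lines. The lowest interferon-high line lay 0.07 above the highest interferon-low line. Of 20 genes downstream of NF-kB, 0 were higher without overlap and 1 was lower (5.0%, against 2.79% of all genes). It was Nfkb2, lower by 0.65 at an adjusted p of 0.86 in limma.

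Outside the interferon lists, 0 of the 18021 genes tested were called in either direction in limma, with 347 higher and 624 lower at an unadjusted p under 0.05. The genes closest to the threshold were lower in interferon-high lines and were chosen for description after their values were seen. Hey1, a transcription factor downstream of Notch, measured 9.96, 9.51, 9.40 and 9.86 in interferon-high lines and 10.75, 10.48, 10.44 and 10.80 in interferon-low lines (difference -0.94 ± 0.15 SE, adjusted p = 0.056). Apcdd1, an inhibitor of Wnt signaling, measured 7.27, 7.48, 8.40 and 6.74 in interferon-high lines and 9.51, 9.96, 10.00 and 8.92 in interferon-low lines (adjusted p = 0.071). Six3, a transcription factor of the developing forebrain, measured 4.51, 5.33, 4.85 and 4.12 in interferon-high lines and 7.89, 7.29, 7.35 and 8.03 in interferon-low lines (adjusted p = 0.14). The 5 middle lines were low for Six3, from 3.31 to 6.41, so that the gene set the interferon-low lines apart from the other 9.

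Lists for other programs held few genes that separated the sides, beside shares over all genes of 1.48% higher and 2.79% lower. In the astrocyte list, 2 of 18 genes were lower without overlap (11.1%) and 0 were higher. They were the neurotensin receptor gene Ntsr2 (difference -2.28) and the glutamate transporter gene Slc1a2 (-1.96), at adjusted p values of 0.86 and 0.87 in limma. More than 2-fold lower were 5 of the 18 and more than 2-fold higher 1, against 1.31% and 1.78% of all genes. The median difference of the astrocyte list was -0.34. Of 39 cell cycle genes, 1 was higher without overlap (2.56%, against 1.48% of all genes). It was Rrm1, a subunit of ribonucleotide reductase, higher by 1.01 at an adjusted p of 0.85 in limma. The median difference of the cell cycle list was 0.51. Mmp2, a matrix metalloprotease, was the only gene of 21 in the fibroblast and matrix list to separate the sides (4.76%). It measured 5.02, 5.57, 8.95 and 8.11 in interferon-high lines and 4.44, 4.42, 5.01 and 4.95 in interferon-low lines (adjusted p = 0.85 in limma). Its higher lines, arrays 55 and 61, were those with the lower interferon scores of their side. Single genes of other lists that did not overlap differed by less than 1 and did not pass the test, among them Ebp of cholesterol synthesis (0.73), Vwf of endothelial cells (0.78), Vim of neural stem cells (0.40) and Aspa of mature oligodendrocytes (-0.45). Of 16 oligodendrocyte progenitor genes, 0 separated the sides, although the median difference was 0.52 and 6 were more than 2-fold higher. The largest differences, those of Tnr (1.93) and Sox10 (1.46), rested mainly on the lines of arrays 66 and 65. Tnr measured 9.22, 9.78, 7.03 and 5.3 in interferon-high lines and 4.61, 5.16, 8.24 and 5.61 in interferon-low lines. For Sox10, the interferon-high lines of arrays 55 (5.55) and 61 (5.65) lay below all 4 interferon-low lines (5.99 to 9.1). The part of these genes in the interferon differences was not tested. Of 23 p53 targets and 24 genes of DNA methylation and repeat silencing, 0 separated the sides. Among 19 genes central to the study, including Pdgfra, Egfr, Met and Mycn, 0 did so. Met illustrates their spread, with 7.16, 8.59, 12.96 and 5.53 in interferon-high lines and 6.32, 4.80, 12.91 and 5.64 in interferon-low lines, one very high line on each side.

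The largest difference of any gene without overlap belonged to Xist, the RNA that coats the inactive X chromosome. It measured 5.47, 5.59, 5.57 and 5.15 in interferon-high lines and 12.84, 12.82, 12.58 and 12.20 in interferon-low lines, a difference of -7.16 ± 1.6 (SE) with an adjusted p of 0.41 in the model of the 13 lines. The middle lines were split, with 5.64 in array 53 and 5.29 in array 59 against 13.11, 12.45 and 12.12 in arrays 63, 57 and 51. The Y-linked gene Eif2s3y measured 6.36, 3.20, 3.49 and 3.66 in interferon-high lines and 3.36, 3.23, 3.27 and 3.55 in interferon-low lines, and 7.93 and 9.60 in the middle lines of arrays 53 and 59. Kdm5d and Uty, also on the Y chromosome, had their highest values in the same 3 lines, arrays 59, 53 and 66. The interferon-high lines of arrays 65, 55 and 61 thus had low Xist together with low Y genes. The labels give no sex. All 4 interferon-high lines had low Xist and all 4 interferon-low lines high Xist, so side and Xist cannot be told apart here. The middle lines of arrays 53 and 59, also with low Xist, had Rtp4 at 9.31 and 6.80 and Lgals9 at 5.45 and 3.82, below all 4 interferon-high lines. For Igtp they had 8.73 and 5.62, and array 53 lay above the interferon-high lines of arrays 55 and 61. The part of Xist or sex chromosomes in the interferon differences was not tested.

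Chromosome 19, which carries the Ifit genes and was lost in part of the tumor cells that the study followed, also varied between lines. The median deviation of its 272 expressed genes from the mean of the 13 lines was -0.34, -0.52, 0.40 and -0.16 in interferon-high lines and 0.16, 0.19, 0.27 and 0.24 in interferon-low lines. The line of array 55 went against the other 3 of its side, and the sides overlapped. Ifit3 measured 9.30, 9.0, 7.41 and 6.01 in interferon-high lines and 4.92, 4.60, 5.27 and 5.0 in interferon-low lines. The middle line of array 63, with a median of -0.40, had 4.81. Ifit2 measured 7.70, 6.35, 8.63 and 5.30 in interferon-high lines and 5.76, 5.73, 6.40 and 5.74 in interferon-low lines, with 9.21, 8.58 and 8.68 in the middle lines of arrays 53, 59 and 51, and the sides overlapped. The lines were sorted on a score that includes Ifit1, which lies on the same chromosome. The part of chromosome 19 in the levels of these genes was not tested.

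**Figure D4:**
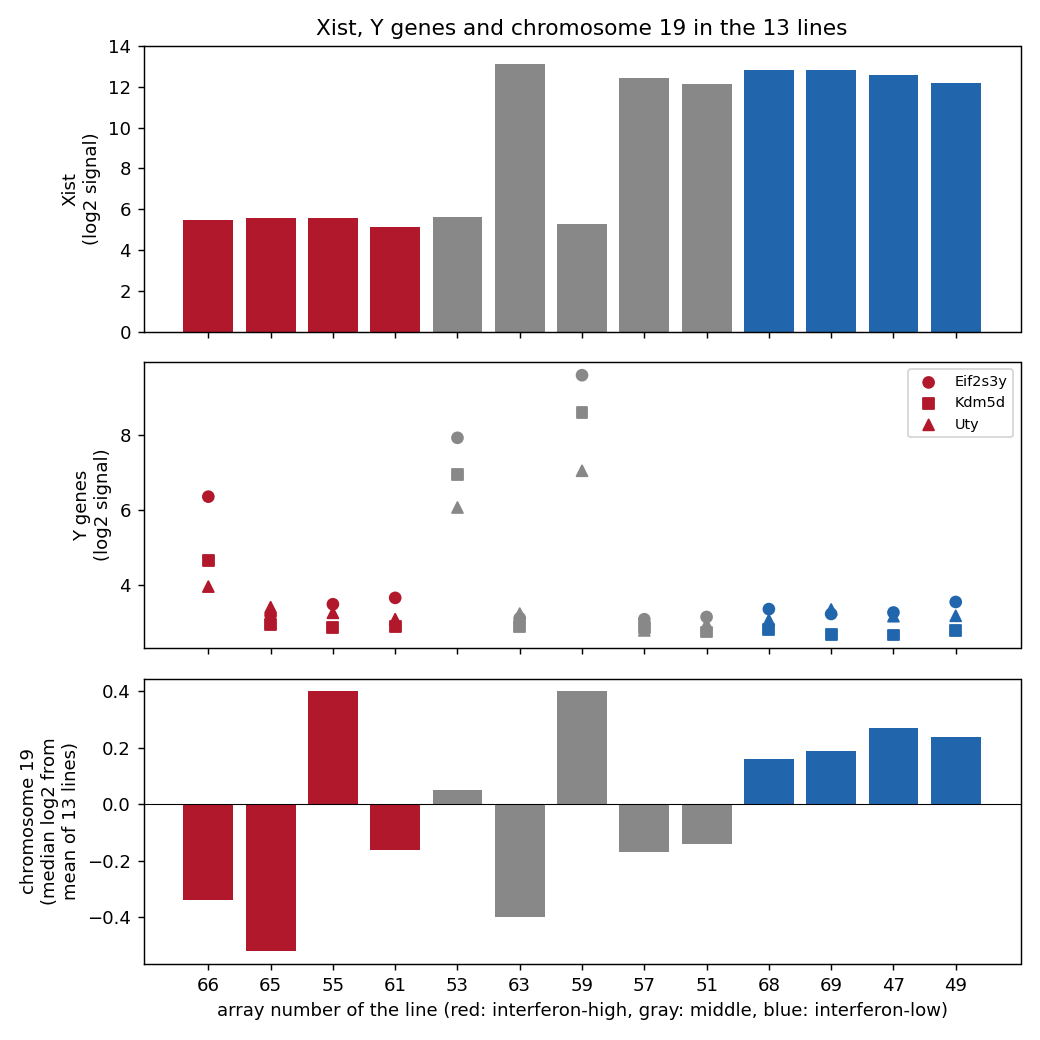
Xist log2 signal (top), log2 signals of 3 Y-linked genes (middle) and median log2 deviation of chromosome 19 genes from the mean of the 13 lines (bottom), with the lines ordered by interferon score along the horizontal axis. Xist lies between 5.15 and 5.59 in the interferon-high lines and between 12.20 and 12.84 in the interferon-low lines, while the middle lines hold both levels.

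The 22 gliomas, whose arrays took no part in sorting the lines, were used to ask which genes moved with the same score across tumors. The score of each glioma was read from its own array, so genes that vary together with Usp18 and Ifit1 follow it by construction. Neither the slopes nor their overlap with the lines are an independent test. By the methods, the 11 R172H gliomas are the tumors from which the end-stage lines were derived, whereas the 11 null gliomas gave none of these lines. With genotype as a covariate, 80 of 18191 genes had a positive slope on the score (limma with Benjamini-Hochberg adjustment; 0.44%) and 0 a negative one (0.0%), with 1178 positive and 627 negative at an unadjusted p under 0.05. Of the 80, 67 were in the interferon lists. All 10 genes called in the lines were among them, and so were 42 of the 54 interferon list genes that were higher without overlap in the lines. Of the 215 genes outside the interferon lists that were higher without overlap in lines, 1 had a positive slope in gliomas. In a bulk tumor, more cells of a type and more RNA per cell cannot be told apart. Oligodendrocyte progenitor markers moved the same way at the unadjusted level: 12 of 16 had a positive slope and 0 a negative one at an unadjusted p under 0.05, 0 were called after adjustment, and their median slope of 0.45 was close to the 0.46 of the antiviral effectors and above the 0.26 of all interferon lists. Of 15 mature oligodendrocyte genes, 6 had a positive slope at that level and 0 a negative one (median 0.29). Their part in the slopes of the interferon genes was not tested.

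Irf7 had the steepest slope of the genes named here, a log2 change of 1.18 ± 0.17 (SE) per unit of score (adjusted p = 0.00034). Its level ran from 5.81 over a median of 8.14 to 12.55 in R172H gliomas and from 7.99 over a median of 11.89 to 13.50 in null gliomas. Oasl2 rose by 1.04 ± 0.09 (adjusted p = 5.8e-07), Ifit3 by 1.03 ± 0.08 (adjusted p = 2.5e-07) and Ddx60 by 0.95 ± 0.13 (adjusted p = 0.00014). Irf9 had a shallower but tighter slope of 0.62 ± 0.04 (adjusted p = 3.7e-08). By list, 35 of 64 antiviral effectors, 8 of 9 GTPases, 10 of 22 antigen presentation genes, 6 of 26 sensors and 5 of 22 signalling genes had a called positive slope, against 0 of 16 ligands and receptors and 0 of 32 chemokines and cytokines.

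Antigen presentation genes that were uneven among the lines moved with the score in gliomas. Psmb8 rose by 0.67 ± 0.10 per unit (adjusted p = 0.00095), Tap1 by 0.64 ± 0.10 (adjusted p = 0.0010) and H2-K1 by 0.49 ± 0.08 (adjusted p = 0.0011). H2-Aa did not pass, with a slope of -0.02 ± 0.17 (adjusted p = 0.98), and Ccl5 (0.46, adjusted p = 0.19) and Cxcl10 (0.66, adjusted p = 0.14) did not pass. The genes lower in interferon-high lines had no called slope in gliomas, with 0.07 for Apcdd1, 0.13 for Hey1 and 0.20 for Six3, and Xist had -0.34 ± 0.46 (adjusted p = 0.84).

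**Figure D5:**
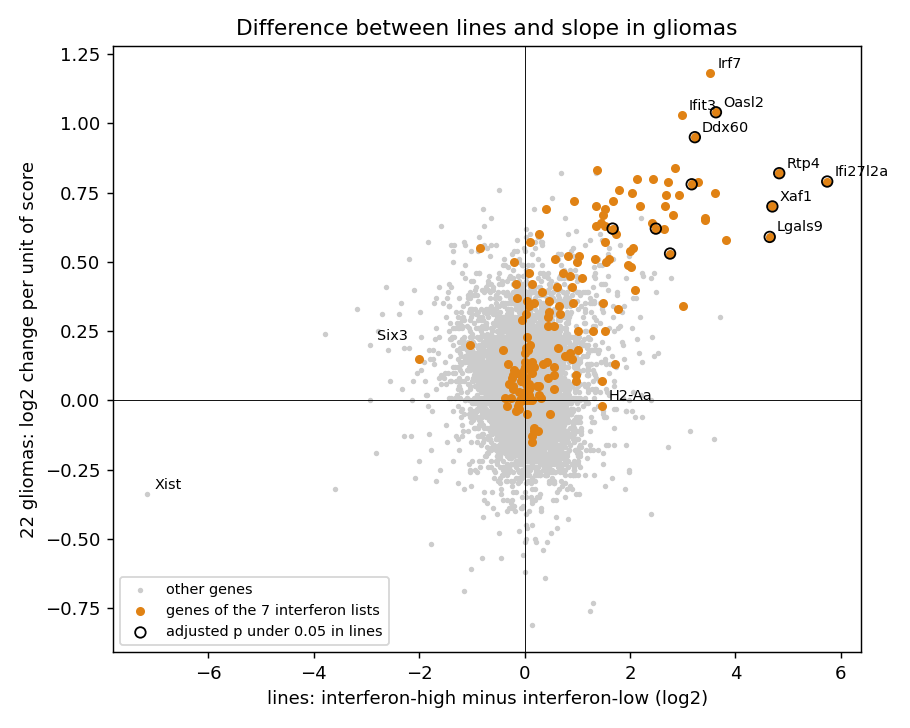
Each gene's difference between interferon-high and interferon-low lines (horizontal axis, log2) against its log2 change per unit of interferon score in 22 gliomas (vertical axis). Interferon list genes are orange and the 10 genes called in lines are circled; Rtp4 lies at 4.83 and 0.82 and Xist at -7.16 and -0.34.

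Unlike the lines, the gliomas contain microglia and macrophages, whose 22 markers averaged 7.85 to 10.00. None of the 22 markers had a called slope on the score. At an unadjusted p under 0.05 in limma, 7 of them had a positive slope and 0 a negative one. The median slope of the 22 was 0.16, against 0.0 over all genes tested. With the mean of these markers as a further covariate, 56 genes had a called positive slope (0.308%), including 9 of the 10 genes called in lines. Ifi27l2a was the exception (0.65, adjusted p = 0.11 in limma). This covariate, a mean of markers in bulk tumors, cannot separate the interferon genes of microglia from those of tumor cells. The part of microglia and macrophages in the slopes was not tested. Of the 13 genes outside the interferon lists with a called slope, 2 were called with that covariate, Gm9706, which shares a probe set with Isg15, and the small GTPase gene Rab21, whose slope was 0.15; both were chosen after their values were seen. The slope differed between R172H and null gliomas for 0 genes at an adjusted p under 0.05 in limma and for 828 at an unadjusted p under 0.05. In R172H gliomas alone 34 genes had a called positive slope, 8 of the 10 genes called in lines among them, and in null gliomas alone 16, with 4 of the 10, and without the genotype term 154 did.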

How the data were processed

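RNA of early passage lines, gliomas and cortices was hybridized to Affymetrix mouse genome arrays, 1 per sample. The deposited values are on a log2 scale (read from the values). The authors corrected the background, normalized the 40 arrays by quantiles and summarized probe sets with the RMA method. The table held 45101 probe sets, 64 of them controls. Of the others, 34945 named 1 gene, 932 several and 9160 none, and only the first were used. Symbols were updated through RefSeq (GRCm38.p6). Each gene took its probe set with the highest mean, which gave 18193 genes, and the score genes were then dropped.

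Differences and slopes were tested in limma 3.58.1 under R 4.3.3 (lmFit and eBayes), adjusted over 18191 genes, with functions tested on simulated data. Where nothing says that samples came from separate animals, p-values measure only the spread between these samples, and precision is limited by how few arrays there are. No detection calls were used, so dim signals (log2 values of about 3 to 5) may be background, and fold changes against them are uncertain. The members, lists and tests were chosen with earlier results of these data known. From each list, the rule named the 4 genes with the largest difference among those whose sides did not overlap, or the 2 largest where none separated, besides the interferon ligands and receptors and the genes of the study. The text gives values for those that bear on the comparison. Bst2, Eif2ak2, Ifit2, Ifit3, H2-K1, Cgas, Mavs, Jak1, Tyk2, Irf3 and genes of no list were chosen after their values were seen. Alternatives are given in the closing section. A gene that no probe set names alone was not analysed here.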

Additional observations from a re-analysis of the deposited data

Results flagged for a closer look

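Over the genes named in the text, 94 sets of 4 lines were examined for a line far from the other 3, and chance flags about 1 in 20 such sets. One stood apart: Ifit2 measured 6.40 in the interferon-low line of array 47, against 5.73 to 5.76 in the other 3 interferon-low lines. The step is small beside the spread of Ifit2 in interferon-high lines (5.30 to 8.63).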

How the results depend on the processing

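The count of 10 genes higher in interferon-high lines, all in the interferon lists, rests on few lines. It ranged from 0 to 14 with 1 line left out (interferon list genes also 0 to 14), and was 0 without array 65 or 69, 2 without array 47, 3 without array 68 and 6 without array 66 (without array 49, 7, of which 6 in the lists). It was 0 with 3 or with 6 lines a side, with the 11 end-stage lines sorted alone and with sorting on the shared Isg15 probe set alone. In 2 alternatives chosen after seeing the data, 0 genes were called with the early biopsy lines left out and 5, all in the lists, with the shared Isg15 probe set added to the score. It was 1 sorted on Usp18 alone and 3 sorted on Ifit1 alone (2 in the lists), where 0 of the original 10 genes were called. The count was 4 with only the 8 lines of both sides (4 in the lists), 6 with all 40 arrays (5 in the lists), 19 with array weights (17 in the lists) and 17 with a slope over the 13 lines (17 in the lists). The count of 0 lower genes became 3 with the mean of all probe sets, 2 with the 8 lines, with all 40 arrays or at an adjusted p under 0.10, 5 with array weights, and 1 without cross-hybridizing probe sets, with a filter on dim genes or sorted on Ifit1 alone, and ranged from 0 to 1 with 1 line left out. In gliomas, the 80 positive slopes became 154 with genotype left out, 34 in R172H gliomas alone (32 in the interferon lists, against 67) and 16 in null gliomas alone (16 in the lists), fits with fewer samples. The 0 negative slopes became 12 with genotype left out, 2 with Ifit1 left out of the score, with cyclic loess or at an adjusted p under 0.10, and 1 with the mean of all probe sets or with trend and robust moderation. The direction turned for the Ifit2 difference, -0.21 when sorted on the shared Isg15 probe set, for the H2-Aa slope, 0.14 with genotype left out, 0.0694 in R172H gliomas, 0.0703 with Ifit1 left out of the score and 0.0024 when the probe sets of a gene were averaged, and for the Ifngr2 slope, -0.0778 in null gliomas. No other named gene with an alternative value changed direction, and the causes of these changes were not tested. No paired analysis was possible because the lines of the sides share no replicate numbers.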
